A study of Mus musculus with 24 samples.

Results

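Draining and non-draining lymph nodes of tumor-bearing mice were compared by the open chromatin of the CD8+ T cells sorted from each. The comparison takes the node libraries whose peak list has at least 10000 rows, which left 6 of 24 libraries in the series and 6 of 10 from lymph node. From the tumor-draining lymph node (DLN) and from the non-draining lymph node (NDLN) there was 1 library each of 3 sorted subsets, named DN, LAG3_SP and TDT_SP, so n = 3 per node and every DLN library has an NDLN partner of the same subset. All mice were Lag3-iCreERT2 Rosa26-LSL-tdTomato on C57BL/6, carried B16-F10 melanoma (a mouse melanoma line), received 2 mg tamoxifen on days 8 to 10 and were harvested on day 19. There was no group without tumor or without tamoxifen, so a non-draining node is here a distant node of the same kind of animal. The Cre is driven from Lag3, and tdTomato therefore marks cells that expressed Lag3 while tamoxifen was present, whatever they express at harvest. DN cells were sorted as lacking LAG3 protein and tdTomato. The labels of the other subsets conflict: libraries named LAG3_SP are described as tdTomato-positive without LAG3, and libraries named TDT_SP as tdTomato-positive with no LAG3 state, so the subsets are kept by library name. The second DN and TDT_SP libraries of each node had 301 to 6613 peaks and were not used. Nothing in the labels shows that the libraries came from separate animals, so p-values cannot be read as a spread between animals. In the main fit they measure how the node difference varies between the 3 subsets, which are not replicates of 1 condition.

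Tumor antigen and dendritic cells that carry it reach the draining node through the lymph, and T cells of that node are primed there, whereas a distant node receives mostly recirculating cells. Naive and central memory CD8+ T cells enter nodes through L-selectin and CCR7 and leave along sphingosine-1-phosphate. Omni-ATAC maps open chromatin with the transposase Tn5, which cuts and tags accessible DNA, so a peak marks an accessible promoter or distal element. Each peak was given a rank value within its library, from the authors' −log10 p: 1 for the strongest of the 14243 peaks kept per library, near 0 for the weakest, and 0 where no kept peak lay over a region. A rank value orders peaks inside 1 library and is no amount of open chromatin. In a bulk library, fewer cells with an open site and a less open site in every cell cannot be told apart.

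The promoters below lie under regions that carry the results. Pex11a and E130018N17Rik are the promoters under the DLN-higher regions of smallest p, Gm15323 and Hmgn5 those under the NDLN-higher regions, among regions where each peak's summit lay inside the region. Prdm1 is the listed effector gene with the region of smallest p, and Arntl is a promoter that ranked alike in all 6 libraries. Sequences are RefSeq promoters on GRCm38.p6, 250 bases before to 50 after the start site, 5′ to 3′ along the gene, with matches to the searched motifs in capitals. Distal regions are named by position, since only promoter sequences were at hand.
Pex11a (chr7:79743082-79743381, minus strand): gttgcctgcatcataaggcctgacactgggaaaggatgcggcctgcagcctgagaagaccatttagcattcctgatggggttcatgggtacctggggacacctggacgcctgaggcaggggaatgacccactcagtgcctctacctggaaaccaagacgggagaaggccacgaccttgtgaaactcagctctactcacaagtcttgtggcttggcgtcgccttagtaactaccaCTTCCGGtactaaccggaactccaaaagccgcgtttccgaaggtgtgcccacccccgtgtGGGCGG
E130018N17Rik (chr2:168154464-168154763, minus strand): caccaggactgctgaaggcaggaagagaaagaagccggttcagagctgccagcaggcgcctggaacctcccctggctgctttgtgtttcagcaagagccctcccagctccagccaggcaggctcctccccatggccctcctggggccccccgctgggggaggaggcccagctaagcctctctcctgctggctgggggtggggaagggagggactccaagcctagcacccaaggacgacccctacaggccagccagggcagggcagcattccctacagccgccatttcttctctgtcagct
Gm15323 (chr13:112000759-112001058, plus strand): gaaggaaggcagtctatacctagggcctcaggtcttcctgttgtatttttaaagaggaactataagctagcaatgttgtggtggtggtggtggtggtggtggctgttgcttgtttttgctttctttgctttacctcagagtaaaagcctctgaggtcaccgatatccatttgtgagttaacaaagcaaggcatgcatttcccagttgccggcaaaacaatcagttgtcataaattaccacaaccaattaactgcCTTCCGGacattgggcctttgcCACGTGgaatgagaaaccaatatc
Hmgn5 (chrX:109013331-109013630, minus strand): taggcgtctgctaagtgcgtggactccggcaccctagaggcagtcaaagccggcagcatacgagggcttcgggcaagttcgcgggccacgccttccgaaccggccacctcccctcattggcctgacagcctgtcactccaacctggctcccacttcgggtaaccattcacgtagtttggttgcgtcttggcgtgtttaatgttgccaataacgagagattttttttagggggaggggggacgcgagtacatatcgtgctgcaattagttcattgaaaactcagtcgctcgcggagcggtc
Prdm1 (chr10:44458699-44458998, minus strand): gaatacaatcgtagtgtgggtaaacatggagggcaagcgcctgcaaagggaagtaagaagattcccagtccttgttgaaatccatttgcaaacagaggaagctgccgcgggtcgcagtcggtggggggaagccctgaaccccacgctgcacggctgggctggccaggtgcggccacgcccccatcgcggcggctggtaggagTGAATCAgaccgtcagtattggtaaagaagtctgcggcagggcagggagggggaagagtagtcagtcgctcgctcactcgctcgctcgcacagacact
Arntl (chr7:113207215-113207514, plus strand): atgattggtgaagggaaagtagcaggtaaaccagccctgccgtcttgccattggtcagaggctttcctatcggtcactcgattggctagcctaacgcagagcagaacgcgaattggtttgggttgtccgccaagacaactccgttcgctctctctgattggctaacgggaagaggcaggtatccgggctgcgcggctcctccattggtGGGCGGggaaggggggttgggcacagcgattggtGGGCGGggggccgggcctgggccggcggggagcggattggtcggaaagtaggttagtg

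A set of 6 motifs was searched on both strands, and a match is a description and not a binding site. The E-box CACGTG, the letters read by clock and MYC-family proteins, occurred in 7.15% of 32851 RefSeq promoters, the ETS core CCGGAAG in 8.86%, the GC box GGGCGG in 35.7%, the CRE TGACGTCA in 1.79%, AP-1 TGANTCA in 7.81% and RUNX TGTGGTT in 5.27%. The Gm15323 promoter held 1 ETS and 1 E-box match. The Pex11a promoter held 1 ETS match and 1 GC box. The Arntl promoter held 2 GC boxes, the Prdm1 promoter 1 AP-1 match, and the windows of E130018N17Rik and Hmgn5 none of the 6 motifs. These sequences shared no motif by node.

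In full, the 6 lists held 14244 to 37544 peaks, and all 24 libraries carry the same batch label. The NDLN LAG3_SP library stood apart. Its list was the shortest, so its whole list was used, its weakest kept peak had a −log10 p of 4.31 against 12.0 to 18.45 in the other 5, its median kept fold over background was 6.45 against 10.81 to 13.09, and its kept peaks had a median width of 164 bp against 428 to 494 bp. Results are therefore also given from the DN and TDT_SP pairs. No read depth is stored in peak lists, and the median pileup of fragments at the summit, worked out from fold and p, was 12 in that library and 23 to 37 over the kept peaks of the others.

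Promoters of some T cell markers had peaks in these libraries, and so did a few promoters of genes listed as markers of other cell types. The Cd3g promoter, of a T cell receptor subunit, ranked between 0.253 and 0.495 in all 6 libraries, and the Lck promoter, of the kinase that couples CD8 to the receptor, between 0.371 and 0.677. The Cd8a promoter was in all 6 full lists, with rank values of 0.352, 0 and 0.35 in DLN DN, LAG3_SP and TDT_SP and of 0.065, 0.858 and 0.184 in the NDLN partners. Of 6 CD8 T cell markers with a listed promoter, 3 to 5 had a promoter peak in the full list, and their summed rank was 0.89 to 1.5 in DLN and 0.92 to 1.79 in NDLN. Among these, Bcl11b had none in any library, Cd3d had one only in DLN DN, at a rank value of 0, and Cd3e had one in all but NDLN LAG3_SP. Of 6 B cell markers 1 (Cr2) had one in each library, with a summed rank of 0 to 0.45 in DLN and 0.12 to 0.66 in NDLN, while Cd79a, Pax5, Ebf1 and Blnk had none. Of 7 NK markers 0 or 1 had one and the summed rank was 0 except in NDLN LAG3_SP (Klrc1, 0.429). Of 8 myeloid and dendritic markers 0 to 3 had one, with a summed rank of 0 except in DLN TDT_SP (Cebpa, 0.182), and Lyz2 and Itgax had none. Of 5 lymph node stroma markers 0 had one, and of 5 melanoma markers 1, Mitf, while Tyr, Tyrp1 and Dct had none. The Mitf promoter ranked at 0.954, 0.926 and 0.859 in DLN DN, LAG3_SP and TDT_SP. In the NDLN partners it ranked at 0.905, 0.658 and 0.927, and in each library it lay above Cd3g and Lck. Of 6 CD4 and regulatory T cell markers 2 or 3 had one in each library, with a summed rank of 0.76 to 1.47 in DLN and 1.09 to 1.45 in NDLN, close to the sums of the CD8 markers. These were Il2ra and Ctla4 in all 6 libraries and Gata3 in 5, while Foxp3, Zbtb7b and Rora had none. Il2ra and Ctla4 are also in the lists of T cell genes read below, so a peak at their promoters is not specific to CD4 cells. Whether other cell types were present, and their part in the node differences, was not tested.

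The first question was whether 2 libraries of 1 node share more of their strongest regions than libraries of different nodes do. They did not beyond the spread. The Jaccard index, the share of all regions of a pair of libraries that the pair has in common, was 0.7502 between DLN DN and NDLN DN, 0.7178 between the TDT_SP libraries and 0.5481 between the LAG3_SP libraries. Libraries of 1 node but different subsets overlapped at 0.6119 on average, and libraries that differed in node and subset at 0.6073. The difference of 0.0046 had p = 0.5 in an exact permutation test of the node labels within subsets (two-sided, 8 arrangements, smallest possible p 0.25), and without the LAG3_SP pair it was -0.0006. Pairs of the same subset from different nodes had a mean of 0.672, which is a description with no test. All 5 overlaps with the NDLN LAG3_SP library lay between 0.4898 and 0.5703, below the other 10.

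**Figure D1:**
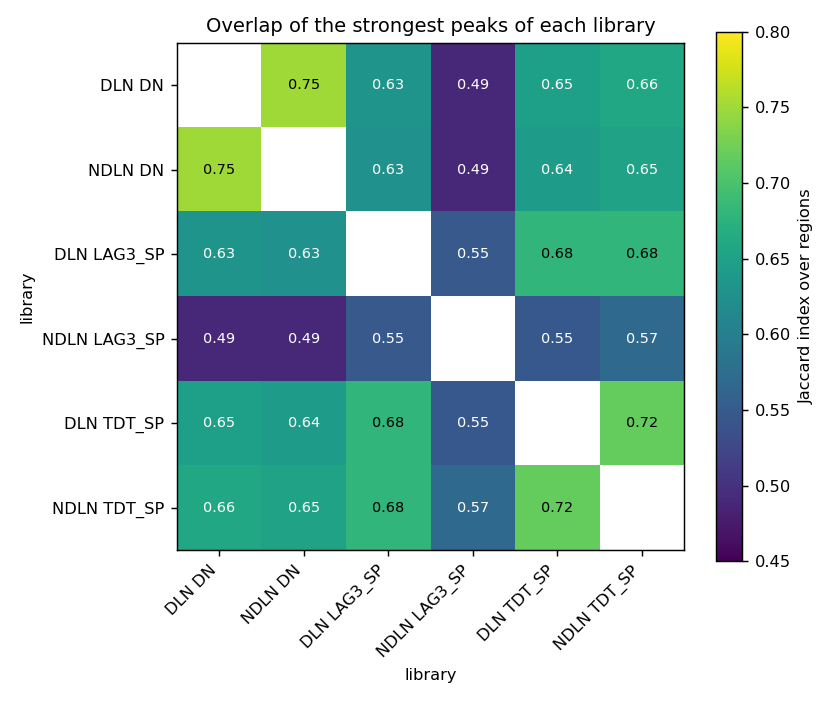
Jaccard index between the 6 node libraries, over 501-bp regions with a kept peak; each cell is 1 pair of libraries and the diagonal is left blank. The DN and TDT_SP libraries overlap most with their partner from the other node (0.7502 and 0.7178), and the NDLN LAG3_SP row is the lowest.

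The share of peaks near genes was compared next. A gene end is here either end of a protein-coding gene, its start included. Summits within 1 kb of a gene end made up 46.73% ± 3.35 of the kept peaks in DLN and 45.89% ± 2.81 in NDLN (SD between the 3 subsets, n = 3 each). Within 1 kb of a listed start site the shares were 46.77% and 46.09%. The DLN library was higher in all 3 pairs, by 0.63 percentage points in DN, 1.85 in LAG3_SP and 0.04 in TDT_SP, with p = 0.25 in an exact sign-flip permutation test, the smallest p that 3 pairs allow, so the test could not have passed a threshold of 0.05. The difference was 2.4 points among the strongest 10000 peaks and 4.69 among the strongest 5000, and -4.93 over all peaks of lists of unequal length. Of 17601 regions with a kept peak in at least 2 libraries, 7736 (43.95%) had one in all 6, and 16059 (91.24%) were in the full lists of all 5 long libraries. The 3 sites named next ranked at 0.9978 or higher in every library. They lay over the Cggbp1 promoter inside Zfp654, a zinc finger gene, over the Stt3a promoter, and over the 4932412D23Rik promoter 159 bp from Zbtb20. Stt3a encodes a catalytic subunit of the oligosaccharyltransferase that adds sugars to new proteins, and Zbtb20 a BTB zinc finger repressor.

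Regions were then compared by limma on the rank values, with the subset as a covariate and Benjamini-Hochberg adjustment over all regions. Of 17601 regions, 0 (0%) passed an adjusted p of 0.05 in either direction, and the smallest adjusted p was 0.848. At an unadjusted p under 0.05 there were 294 regions higher in DLN (1.67%) and 228 higher in NDLN (1.3%), together 522 (2.97%). The 3 DLN values all lay above the 3 NDLN values in 566 regions (3.22%), and the 3 NDLN values all lay above in 393 (2.23%), together 959 (5.45%). The same test on the log2 summit pileup, scaled between libraries and run over the 10666 regions found in all 6 full lists, also called 0 regions, with 605 at an unadjusted p under 0.05. No second tool was run. The fit had 2 residual degrees of freedom. With 1 library per node and subset, its residual spread is the disagreement of the node difference between the 3 subsets. A node difference in 1 subset alone counts as spread there, so 0 calls does not speak to such differences.

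Each subset by itself had many regions whose rank differed between the nodes. Rank values differed by 0.3 or more in favour of DLN in 810 regions of the DN pair (4.6%) and in favour of NDLN in 822 (4.67%). In the TDT_SP pair the counts were 981 (5.57%) and 993 (5.64%). In the LAG3_SP pair they were 3165 (18%) and 1753 (9.96%), and 3867 of the regions kept in DLN LAG3_SP had no peak at all in the list of its partner. The node difference of 1 pair was nearly unrelated to that of another: over 17601 regions Pearson's r was 0.03 between DN and TDT_SP, 0.015 between DN and LAG3_SP and 0.062 between LAG3_SP and TDT_SP. These are descriptions across regions, which share their libraries and are not replicates. Of 263 regions that differed by 0.3 or more in the DN and in the TDT_SP pair, 136 (51.7%) went the same way. The count was 267 of 504 (53%) for DN with LAG3_SP and 449 of 753 (59.6%) for LAG3_SP with TDT_SP. A difference of 0.3 or more in all 3 pairs in 1 direction was found in 23 regions for DLN (0.131%) and in 15 for NDLN (0.0852%).

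**Figure D2:**
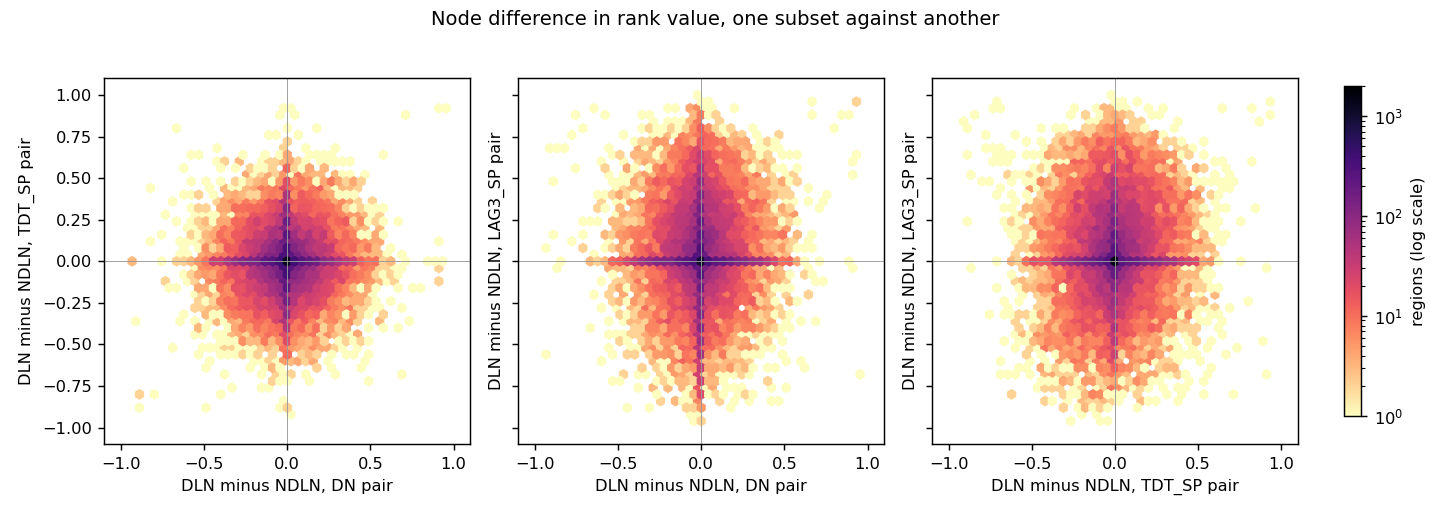
DLN minus NDLN rank value of each of 17601 regions in 1 subset pair against another, as counts per hexagon on a log colour scale. The clouds are centred near 0 with little slope (r = 0.03, 0.015 and 0.062), and the LAG3_SP differences spread widest.

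Arntl, Slc16a1 and Rhoh were the genes named with the comparison. Arntl encodes BMAL1, the clock protein that pairs with CLOCK on E-boxes, Slc16a1 the lactate and pyruvate transporter MCT1, and Rhoh a blood-cell protein that recruits ZAP70 to the T cell receptor. A region inside Arntl, chr7:113263010-113263510, 55.75 kb from its start site, had rank values of 0.361, 0.314 and 0.368 in DLN DN, LAG3_SP and TDT_SP and 0 in the 3 NDLN libraries. The groups did not overlap, and the difference was 0.348 ± 0.091 (SE, 95% interval 0.127 to 0.568; limma unadjusted p = 0.00795, adjusted p = 0.848). The site was not closed in NDLN: the full lists of NDLN DN and NDLN TDT_SP held a weaker peak there, with a summit pileup of 18 and 15 fragments against 31, 23 and 19 in DLN, while the short NDLN LAG3_SP list held none. No tumor library of 12 had any peak there. With the strongest 10000 peaks per list the difference was 0.071. The Arntl promoter, whose sequence is given above, ranked from 0.975 to 0.997 in all 6 libraries, with a difference of -0.004.

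The Slc16a1 region lay 22.32 kb beyond the gene, at chr3:104616090-104616590. Its rank values were 0.327, 0.439 and 0.52 in DLN and 0.018, 0 and 0 in NDLN, again without overlap, and the difference was 0.423 (95% interval 0.157 to 0.689; limma unadjusted p = 0.00767, adjusted p = 0.848). The pileup was 25, 23 and 18 in DLN, 15 and 13 in NDLN DN and NDLN TDT_SP, and no peak was listed in NDLN LAG3_SP. None of 12 tumor libraries had a kept peak there and 2 had a weaker one. With the strongest 10000 peaks the difference was 0.186. At the Slc16a1 promoter the groups overlapped, with 0, 0.56 and 0.428 in DLN and 0.059, 0.45 and 0.16 in NDLN. A further region 42655 bp from the gene had 0.367, 0.348 and 0 in DLN and 0 in NDLN, and the fourth region ranked above 0 only in the DN pair (0.509 and 0.254).

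Near Rhoh the direction was the opposite. The region 4.43 kb beyond its end (chr5:65900879-65901379) ranked at 0.165, 0.078 and 0 in DLN and at 0.444, 0.523 and 0.449 in NDLN, a difference of -0.391 (95% interval -0.694 to -0.088; limma unadjusted p = 0.0191, adjusted p = 0.848). All 6 full lists held a peak there, with an unscaled pileup of 28, 18 and 15 in DLN and 31, 11 and 27 in NDLN. The higher DLN pileup in the LAG3_SP pair is not scaled for depth. The median pileup over kept peaks was 30 in DLN LAG3_SP and 12 in NDLN LAG3_SP. With all peaks of each list the difference was -0.082, and with the strongest 10000 it was -0.248. Of 12 tumor libraries 1 had a kept peak there. The other 6 regions assigned to Rhoh had differences from -0.244 to 0.074, and its promoter ranked at 0.24, 0 and 0.36 in DLN and 0.151, 0.088 and 0.401 in NDLN. When 9 tumor libraries of the same subsets entered the fit, making 15, the regions of Arntl and Slc16a1 reached adjusted p = 0.0132 in limma, and 6 regions were called in all. The node differences stayed at 0.348 and 0.423. All tumor libraries were at rank 0 at both regions, so they added residual degrees of freedom with no spread among them. The lower adjusted p therefore gives no further evidence of a node difference.

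The regions of smallest p other than these are given as values, since none passed the adjusted test. Higher in DLN, a region 0.13 kb beyond Coro1b, which encodes an actin-binding coronin, ranked at 0.567, 0.492 and 0.642 in DLN and at 0 in NDLN (chr19:4148232-4148732; difference 0.567, limma unadjusted p = 0.00346). The promoter of Pex11a, a gene of peroxisome division, had 0.392, 0.349 and 0.438 in DLN and 0 in NDLN, with pileups of 26, 19 and 15 against 14, none and 9. The region over the E130018N17Rik promoter, 26.26 kb from Adnp, had 0.419, 0.568 and 0.491 in DLN and 0 in NDLN. In each of these the NDLN DN and NDLN TDT_SP full lists held a weaker peak. Strong sites with a smaller shift were the Cpeb4 promoter, of an RNA-binding regulator of translation (0.928, 0.96 and 0.907 in DLN against 0.652, 0.854 and 0.781), and a region inside Sipa1l3 (0.927, 0.887 and 0.898 against 0.776, 0.762 and 0.731). The promoter of Prc1, a microtubule bundler of cytokinesis, had overlapping values of 0.801, 0.954 and 0.917 in DLN and 0.573, 0.687 and 0.821 in NDLN, although every pair was higher in DLN.

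Higher in NDLN, the region over the Gm15323 promoter, more than 100 kb from any protein-coding gene, ranked at 0.673, 0.561 and 0.517 in DLN and 0.859, 0.982 and 0.779 in NDLN (difference -0.29, limma unadjusted p = 0.0058). A region 16.46 kb from Tcf7, whose product TCF1 keeps naive and stem-like T cells, had 0.747, 0.797 and 0.753 in DLN and 0.854, 0.915 and 0.946 in NDLN, without overlap (difference -0.139, limma unadjusted p = 0.00882). The site is open in both nodes and had a kept peak in 12 of 12 tumor libraries, with a median rank of 0.858. Sites with no kept peak in DLN lay inside Btg3, an antiproliferative gene (0 against 0.423, 0.454 and 0.536), and inside Ptch1, the hedgehog receptor (0 against 0.343, 0.658 and 0.43). Neither site was closed in DLN, since all its full lists held a peak at both. At Btg3 the unscaled pileup was 33, 27 and 18 in DLN and 44, 12 and 41 in NDLN. At Ptch1 it was 30, 23 and 16 against 42, 16 and 36. In the LAG3_SP pair the DLN pileup was thus the higher at both, without scaling for depth. The Hmgn5 promoter, of a nucleosome-binding protein, had 0.822, 0.855 and 0.752 in DLN and 0.912, 0.97 and 0.885 in NDLN. Inside Mta3, a subunit of the NuRD chromatin-remodelling complex, the values were 0.841, 0.75 and 0.698 against 0.916, 0.953 and 0.916. Inside Gnptab, of a lysosomal enzyme targeting transferase, they were 0, 0.308 and 0.297 against 0.513, 0.863 and 0.809. At the promoter of Polr3e, an RNA polymerase III subunit, they were 0.623, 0.784 and 0.628 against 0.807, 0.913 and 0.903. Beside Gimap9, of a lymphocyte GTPase family, they were 0.005, 0 and 0 against 0.329, 0.466 and 0.346. All DLN full lists held a peak there too, with an unscaled pileup of 30, 20 and 18 against 34, 12 and 32 in NDLN.

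In 3 of the 20 regions at least 1 value came from a peak whose summit lay outside the region, against 8.03% of all regions: Btg3 in 1 library, Depdc1b in 3 and Rap2b in 3. Inside Depdc1b, DLN ranked at 0.698, 0.864 and 0.862 and NDLN at 0, 0.549 and 0, but NDLN also had kept peaks with summits close by. Taking the highest kept peak with a summit within 500 bp, a check added after seeing the data, gave 0.783, 0.681 and 0.788 in NDLN and a difference of 0.057. At Btg3 it gave 0.415 in DLN TDT_SP and a difference of -0.333, and with summits inside the region the difference was -0.292. At Rap2b, of a small GTPase, the check of summits within 500 bp turned the difference from -0.144 to 0.177. It set DLN LAG3_SP (0.863), NDLN DN (0.921) and NDLN TDT_SP (0.906) to 0, because the summits of those covering peaks lay further away. The reversal is therefore no sign of a stronger site in DLN.

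**Figure D3:**
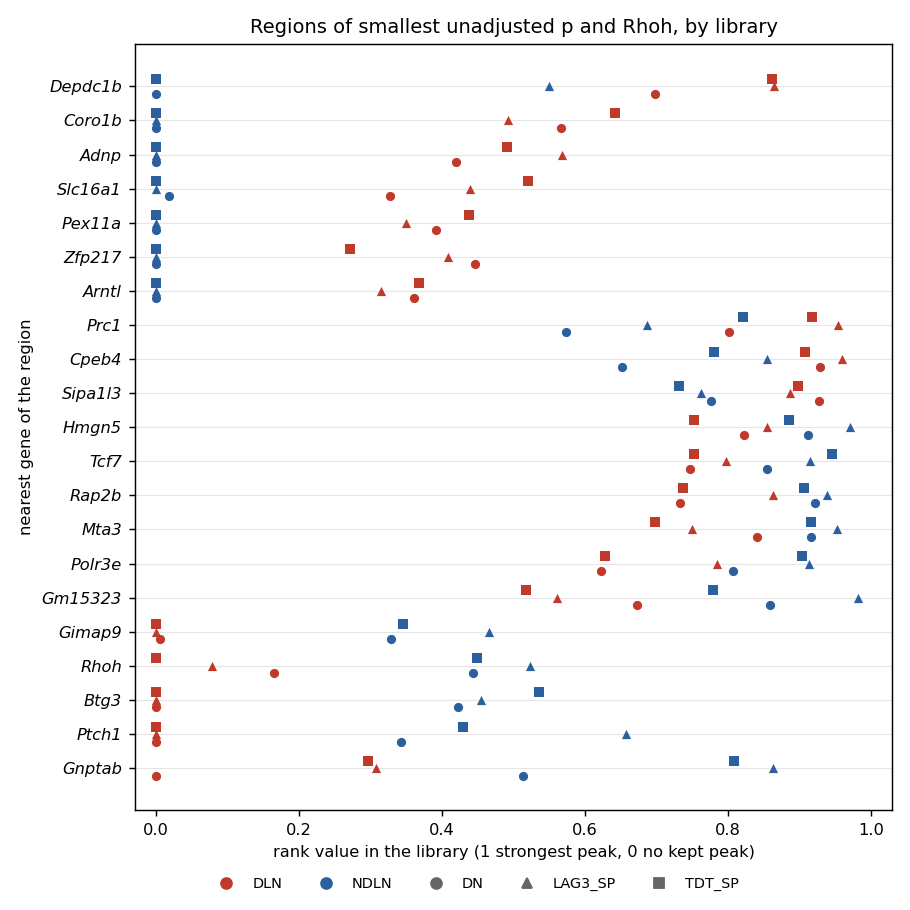
Rank value in each of the 6 libraries at the 20 regions of smallest unadjusted p and at Rhoh, named by the nearest gene or, for Gm15323, by the promoter; colour gives the node and shape the subset. The groups are apart at every region shown except Prc1, and at Arntl the DLN values of 0.314 to 0.368 stand against 0 in NDLN.

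Gene lists were read as counts and medians beside those of all regions, whose median difference was 0.0134. No region of any list was called. For clock genes, 16 of 19 had a region, and the 37 regions had a median difference of -0.0038, with the Arntl region as the 1 at an unadjusted p under 0.05, against 2.97% of all regions. The promoters of Per3, Nr1d2 and Dbp, which belong to the clock's feedback and output loops, had a kept peak in all 6 libraries, at 0.664 to 0.926, 0.758 to 0.923 and 0.627 to 0.919. A region inside Npas2, the CLOCK paralogue, had 0, 0.366 and 0.245 in DLN and 0 in NDLN.

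Among 56 regions of lactate and nutrient transport and glycolysis genes the median was -0.0232. The Ldha promoter, of lactate dehydrogenase A, had 0, 0.412 and 0.41 in DLN and 0.475, 0.726 and 0.595 in NDLN, without overlap and opposite in direction to Slc16a1. Hk2, the inducible hexokinase, had 0.407, 0.552 and 0.602 against 0.616, 0.924 and 0.648 at its promoter. The glucose transporter gene Slc2a1 had 0.721, 0.837 and 0.634 against 0.436, 0.408 and 0.003 in a region 0.53 kb from its start, but at the promoter itself NDLN ranked at 0.436, 0.772 and 0.612, so that the groups overlapped there. The first value set came from peak edges in 4 libraries, and with summits within 500 bp the difference was 0.124.

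T cell receptor signalling genes had a median of -0.026 over 69 regions. The promoter of Lat, the adaptor phosphorylated by ZAP70, had 0.332, 0.505 and 0.644 in DLN and 0, 0 and 0.538 in NDLN. The promoter of Cblb, which restrains receptor signalling, ranked between 0.953 and 0.989 in all 6 libraries. Genes induced early by the receptor had a median of -0.032 over 68 regions. The promoter region of Nr4a3, an early nuclear receptor gene, had 0.51, 0.528 and 0.617 in DLN and 0.24, 0.2 and 0.504 in NDLN. A region beside Cd69, which holds cells in the node by removing the sphingosine-1-phosphate receptor, had 0.691, 0.59 and 0.84 against 0.935, 0.768 and 0.906 (limma unadjusted p = 0.0203), with overlap.

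Exhaustion genes had the lowest median, -0.0845 over 35 regions, with 4 regions in which NDLN lay above DLN throughout and 0 the other way, against 2.23% and 3.22% of all regions. A region 25.29 kb from Tigit, an inhibitory receptor gene, had 0.795, 0.452 and 0.681 in DLN and 0.842, 0.85 and 0.877 in NDLN. A region beside Ctla4 had 0.117, 0.198 and 0.551 against 0.402, 0.806 and 0.812, with overlap. Effector genes had a median of -0.0636 over 41 regions. The promoter of Prdm1, which encodes the effector regulator BLIMP1, had 0.673, 0.475 and 0.555 in DLN and 0.795, 0.887 and 0.811 in NDLN (difference -0.263, limma unadjusted p = 0.0177). Another region inside Prdm1, 24565 bp from its start site, went the other way. It had 0.606, 0.503 and 0.603 in DLN and 0.499, 0 and 0.321 in NDLN, without overlap. NDLN lay above DLN throughout in 4 effector regions and DLN above NDLN in 1, against 2.23% and 3.22% of all regions. The Ifng promoter had 0.044, 0.215 and 0.087 against 0.292, 0.611 and 0.355, and the region 22.25 kb from Gzmb had 0, 0.171 and 0 against 0.083, 0.608 and 0.431, with overlap. Chemokine and cytokine genes had a median of -0.0797 over 29 regions, with 0.147 or less in DLN and 0.155, 0.841 and 0.176 in NDLN at a site near Ccl5.

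Without the pair that holds the short list, the exhaustion and chemokine medians lay nearer to 0. In the LAG3_SP pair the median difference of the chemokine and cytokine regions was -0.2392, against 0 in DN and 0.0025 in TDT_SP. Over the DN and TDT_SP pairs together the medians were -0.0396 for exhaustion, -0.0551 for effector and -0.0126 for chemokine and cytokine regions, against 0 for all regions. In those 2 pairs NDLN lay above DLN in 6 of 35 exhaustion regions (17.1%) and 9 of 41 effector regions (22%), and the share over all regions was 10.9%. DLN lay above in 1 and 3 of them, with 10% over all regions. Other lists were as far from those shares: NDLN lay above in 10 of 56 lactate and glycolysis regions (17.9%) and 2 of 9 interferon regions (22.2%), and DLN lay above in 9 of 48 homing regions (18.8%), with 3 (6.25%) the other way. Whether a list stands apart was not tested.

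The other lists had medians on both sides of that of all regions. Naive and memory genes had a median of -0.009 over 92 regions, and the region 36.87 kb from Id3, a regulator of memory cells, had 0, 0.29 and 0.367 in DLN and 0 in NDLN. Homing and egress genes were at -0.0021 over 48 regions. A region 13.7 kb from Cxcr4, of the receptor for CXCL12, had 0.566, 0 and 0.517 in DLN and 0.105, 0.037 and 0 in NDLN. A region 8.16 kb from Ccr7, of the receptor that brings T cells into the node, had 0.394, 0.01 and 0.432 in DLN and 0, 0 and 0.164 in NDLN. The groups overlapped at both. At another region, 15913 bp from Ccr7, they did not, with 0.725, 0.618 and 0.695 in DLN and 0.595, 0 and 0.559 in NDLN. Of the 48 homing regions, DLN lay above NDLN throughout in 1 and NDLN above DLN in 1, against 3.22% and 2.23% of all regions. Cytokine receptor genes were at -0.012 over 70 regions, with the Il15ra promoter, of the chain that presents interleukin 15, at 0.058, 0.047 and 0.148 in DLN and 0.165, 0.593 and 0.576 in NDLN. Interferon response genes had 9 regions and a median of 0.0656, which was -0.012 without the LAG3_SP pair. Cell cycle genes were at 0.0189 over 31 regions, and the promoter of Top2a, the topoisomerase of dividing cells, had 0.351, 0.731 and 0.38 against 0, 0 and 0.32. Chromatin regulators were at 0.0137 over 64 regions and housekeeping genes at 0 over 18, with the Gapdh promoter at 0.775, 0.789 and 0.776 in DLN and 0.815, 0.956 and 0.886 in NDLN. The 3 Gapdh values of the nodes did not overlap.

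**Figure D4:**
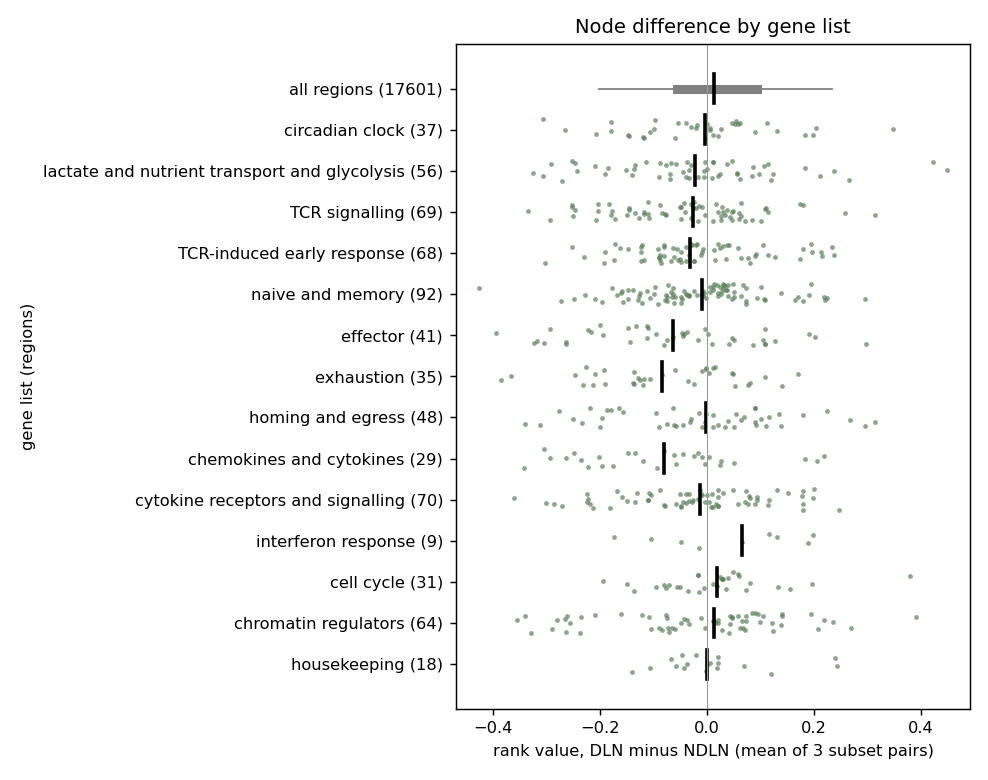
DLN minus NDLN rank value, mean of the 3 subset pairs, for each region (dot) of 14 gene lists, with the median as a black bar; for all 17601 regions the thick grey line spans the 25th to 75th and the thin line the 5th to 95th percentile. Every list straddles 0, and the lowest medians are those of exhaustion (-0.0845), chemokines and cytokines (-0.0797) and effector genes (-0.0636).

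Last, regions kept in 1 node and not in the other were followed into the tumor. A kept peak in all 3 DLN and in no NDLN library was found in 65 regions (0.369%), and the opposite in 49 (0.278%). When the full lists were searched, 0 regions were left in either direction. Of the 65, 64 had a weaker peak in NDLN DN, 64 in NDLN TDT_SP and 0 in NDLN LAG3_SP, whose kept list was its whole list. Of the 49, 48, 49 and 42 had one in DLN DN, LAG3_SP and TDT_SP. The 65 were thus absent from a whole short list, while most of the 49 were only below the cut in longer lists. The 2 sets were not chosen alike. From the DN and TDT_SP pairs alone the kept lists gave 232 and 287 regions. The 65 included Arntl, Coro1b and Pex11a, and their median rank in DLN was 0.201. Of the 65, 17 (26.2%) overlapped a listed promoter, against 4 of 49 (8.16%) and 36.8% of all regions.

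In the 12 tumor libraries with long lists, 24.6% to 49.2% of the 65 DLN regions had a kept peak (median 38.5%), against 32.7% to 61.2% of the 49 NDLN regions (median 46.9%) and 60.3% to 74.5% of all regions (median 66.8%). The NDLN set had the higher share in 10 of 12 tumor libraries, with DN replicate 4 and TDT_SP replicate 3 as the exceptions. Regions with no kept peak in any tumor library numbered 20 of 65 (30.8%) and 6 of 49 (12.2%), against 13.3% of all regions. The 2 sets are weak sites by construction and were not chosen alike, and the difference between them was not tested.

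**Figure D5:**
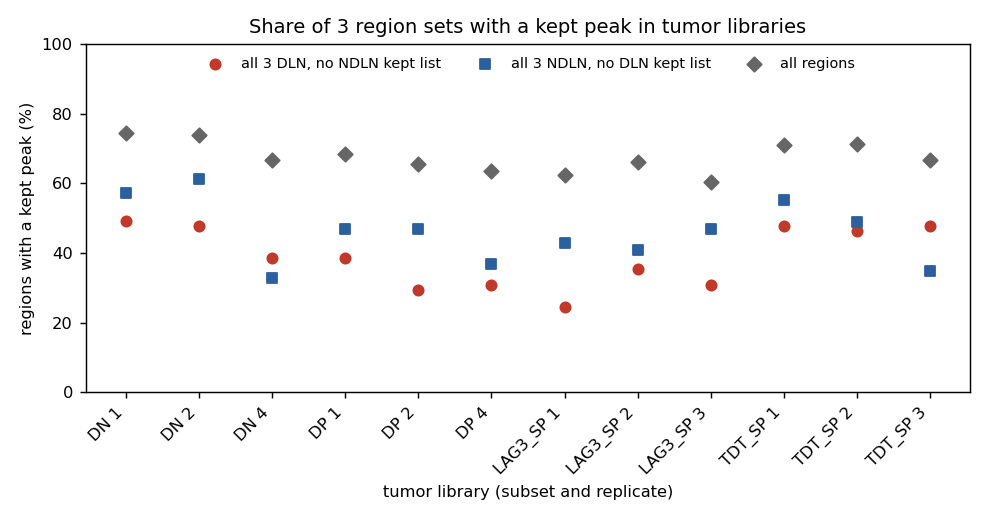
Share of regions with a kept peak in each of 12 tumor libraries, for the 65 regions kept in all 3 DLN and no NDLN library (circles), the 49 kept in all 3 NDLN and no DLN library (squares) and all 17601 regions (diamonds). All regions lie highest in every library (60.3% to 74.5%), and squares lie above circles in 10 of 12.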

How the data were processed

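The data are chromatin accessibility peak lists, 1 per library, from Omni-ATAC on sorted CD8+ T cells. Per the submitters' processing notes, reads were aligned with BWA to GRCm38 (mm10) and peaks called with MACS2, while settings and versions are not given here. Lists are per sample, so each peak's fold ratio over background and −log10 p, as deposited by the authors, belong to 1 library and are not comparable in size between libraries of different depth. The deposited score and −log10 q columns were not used for results.

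In each of 6 lists, peaks of the autosomes and X were ordered by the deposited −log10 p, and the strongest 14243, the length of the shortest, were kept (18 peaks lay elsewhere). Regions of 501 bp were placed around summits, strongest first, and 17601 of 23160 with a peak overlapping by at least 1 bp in 2 or more libraries were kept. The rank value is the quantile of the strongest overlapping kept peak. limma 3.58.1 (R 4.3.3; lmFit, eBayes with a trend) fitted subset and node, and other steps used Python 3.11.15 with scipy 1.17.1. A difference is DLN minus NDLN. Regions took the name of the closest protein-coding gene up to 100 kb away (21631 genes, RefSeq GRCm38.p6), which does not show that it regulates that gene, and promoters are those of the RefSeq table, which lacks some genes. The summit pileup was worked out from fold and p by the caller's formulas and was whole within 0.01 for 100% of peaks. The genes named are Arntl, Slc16a1, Rhoh, the 10 regions of smallest p in each direction and up to 2 genes per list by smallest p; further list genes given by their promoter values were chosen after their values were seen. The genes, lists and rules were chosen with earlier results of these data known. Some items are not reported here.

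Each group has 1 library per node, replicate 1, and all carry the same batch label. Alternatives covered list length, ranking column, region rules, covariates, the libraries in the fit and leaving out each subset pair. The summit pileup fits, the fit without a trend, start sites in place of gene ends and the check of summits within 500 bp were added after seeing the data.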

Additional observations from a re-analysis of the deposited data

How the results depend on the processing

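limma called 0 regions with all peaks, the strongest 10000 or 5000 peaks, ranking by fold, summits inside the region, regions in at least 1 or 3 libraries, no subset covariate, no trend, the second replicates added (strongest 3000 peaks) and scaled log2 pileup. It called 114 regions on presence or absence, which are the 65 and 49 regions without spread inside a node, 6 with 15 node and tumor libraries, and 20 on scaled log2 pileup without the LAG3_SP pair. Leaving out a pair gave 8 to 18 calls (17 without DN, 18 without LAG3_SP, 8 without TDT_SP) with 1 residual degree of freedom, and 0 regions were called in all 3 of these fits. All 8 calls without TDT_SP were also among the 17 without DN. At these 8, NDLN LAG3_SP ranked at 0 to 0.53 and every other library at 0.966 or higher. The fits without DN and without LAG3_SP shared 2 calls. In 14 of the 17, 17 of the 18 and 7 of the 8 calls at least 1 value came from a peak whose summit lay outside the region, against 8.03% of all regions. Cpeb4 was the exception among the 18 without the LAG3_SP pair. The libraries are paired by subset in every fit except the one without that covariate. No paired analysis was possible because each group kept replicate 1 alone, as far as a block by replicate number goes.

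The Jaccard difference of 0.0046 was -0.0044 with all peaks, and -0.0006 to 0.0118 when a pair was left out. The gene-end difference of 0.84 was -4.93 with all peaks of each list, where the lists differ in length, 2.4 and 4.69 with the strongest 10000 and 5000 peaks, and 0.33 to 1.24 when a pair was left out. Regions kept in all libraries of 1 node and absent from the full lists of the other numbered 1 to 15 for DLN and 0 to 7 for NDLN when a pair was left out, and 65 and 49 when absence was taken from the kept lists. Of 742 values for the 46 named regions under an alternative, 702 kept direction and call, 13 passed the threshold, 21 were at 0 on presence or absence and 6 reversed. With summits inside the region Depdc1b was at -0.183, Rap2b at 0.177 and Slc2a1 at -0.137. Ccnd3 was at 0.051 with all peaks and at 0.079 on scaled log2 pileup of 2 pairs. With the highest summit within 500 bp Rap2b was at 0.177. Apart from what these constructions show, the cause was not tested. The files give no read depth. The NDLN LAG3_SP list ends at a −log10 p of 4.31 with 14244 peaks, so a site without a peak there may be open below detection.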
